A study of Mus musculus with 23 samples.

Results

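Neuregulins are growth factors of the epidermal growth factor (EGF) family, and ErbB2, ErbB3 and ErbB4 are the receptor tyrosine kinases through which they act. The genes described here are the 4 neuregulins Nrg1, Nrg2, Nrg3 and Nrg4 and the 3 receptors Erbb2, Erbb3 and Erbb4, taken by symbol, 7 genes of the 43068 listed in the nerve crush libraries and of the 22880 listed in the libraries of inducible mutants. They were represented by 30 transcripts in the former files and by 20 in the latter.

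RNA-seq was performed on mouse sciatic nerves (SN) in 2 experiments. In the crush experiment, C57BL/6J wild-type males underwent SN crush at 2 months of age, and nerves were taken 3 days later from the injured side (crushed, n = 4), from the uninjured side of operated animals (contralateral, n = 4) and from animals without crush (uncrushed, n = 3). In the experiment with induced mutants, Dicer or Dgcr8 (both needed for microRNA biogenesis) was deleted in adult Schwann cells (SCs). Dicer iKO (n = 3) and Dgcr8 iKO (n = 3) mice were homozygous for the floxed allele and carried a tamoxifen-dependent Cre (CreERT2) driven by a promoter of myelinating SCs. Dicer control (n = 3) and Dgcr8 control (n = 3) mice lacked the Cre. Mutants and controls alike received tamoxifen at 8 to 10 weeks of age and were examined 3 months after it. The promoter restricts Cre to SCs that make myelin, so that other cells of the nerve retain the intact gene, and mutant nerves were preselected by their affected morphology. One uncrushed library had different numbers in its title and its description, and the title was used. The labels do not say whether samples of the same number share an animal, a litter or a day, so p-values measure the spread between the sequenced samples. By the methods, crushed and contralateral nerves came from the same operated animals. Which numbers belong together is not stated, and the groups were fitted as independent.

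In peripheral nerves, Nrg1 on the axon surface is the main known signal from axons to SCs, and it controls SC survival, migration, proliferation and the onset and thickness of myelin. ErbB3 binds neuregulin but has an impaired kinase, ErbB2 has an active kinase but no known ligand, and the pair forms the neuregulin receptor of SCs. ErbB4 binds neuregulins and some other EGF family ligands and signals by itself or with ErbB2. Full myelination by SCs depends on the Nrg1 form kept in the axon membrane, known as type III, whereas SCs themselves are known to make soluble Nrg1 after injury.

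The bioactive part of every neuregulin is an EGF-like domain held by cysteine bridges. The exon below carries the first part of this domain in Nrg1, and it is shown because the files listed 1 Nrg1 transcript and this exon is common to the other types. The GENCODE M21 annotation (build GRCm38) has the exon in 12 of 12 protein-coding Nrg1 transcripts, including those that start upstream of the listed one. It lies on the minus strand at chr8:31849310-31849439 and is given in the direction of transcription, with its 4 in-frame cysteine codons in capitals.
Nrg1 EGF-domain exon: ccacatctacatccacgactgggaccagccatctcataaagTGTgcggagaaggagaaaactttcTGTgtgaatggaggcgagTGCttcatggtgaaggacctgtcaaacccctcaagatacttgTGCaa

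The next exon, on the minus strand at chr1:68043908-68043955, is shown because it separates both full-length Erbb4 transcripts in the files. Erbb4-201 contains it and Erbb4-202 does not. It is known as the CYT-1 exon and adds 48 bases in frame to the part of the receptor inside the cell, with 1 tyrosine codon, in capitals, that belongs to a docking site for phosphoinositide 3-kinase.
Erbb4 CYT-1 exon: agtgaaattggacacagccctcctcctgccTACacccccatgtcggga

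The transcript listed for Nrg1, Nrg1-201 (chr8:31817756-31918280), starts with the exon known for the membrane-kept type III form, and 667 of its 2100 coding bases lie in that exon. However, 1433 of the 2100 bases (68.2%) are also in exons of transcripts that start upstream. The annotation holds 18 Nrg1 transcripts, 11 of which start far upstream. The value given for Nrg1 is therefore that of 1 transcript model that shares most of its sequence with other types, and the types could not be told apart.

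Library totals ranged from 6617716 to 12806066 counts in the 11 crush libraries and from 5594859 to 10143244 in the 12 libraries of the induced mutants. A count of 0 in a library leaves room for up to 3 counts, which corresponded to between 0.235 and 0.513 CPM (counts scaled to the library total after TMM normalization, as in all CPM values below) in the former and between 0.286 and 0.518 CPM in the latter; this limit covers counting error only. All 7 listed SC markers were detected in every group, which does not test for admixed tissue. In Dicer controls, adipocyte markers summed to 2.59 to 41.8 CPM and skeletal muscle markers to 3.04 to 16.8 CPM. Dicer1 and Dgcr8, the genes deleted, were counted over the whole gene, including the exons outside the deleted part and the cells without Cre, and their counts therefore did not check the genotype. Dicer1 was at 81.8 ± 0.415 CPM (SD, n = 3) in Dicer iKO against 88.7 ± 1.66 (n = 3) in controls, and Dgcr8 was at 45.1 ± 7.83 CPM (n = 3) in Dgcr8 iKO against 38.5 ± 3.19 (n = 3). Neither passed edgeR's quasi-likelihood test in its own mutant (adjusted p = 0.357 and 0.233). By PCR, the study reported lower mRNA of the deleted gene in each mutant, and lower let-7f, a microRNA, in both.

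In uncrushed nerves, RNA of each receptor was more abundant than RNA of each ligand. Protein was not measured, so scarce ligand RNA does not give the amount of neuregulin on axons. On a scale of CPM per kilobase of transcript, which allows a comparison between genes, uncrushed nerves had 21 ± 1.70 for Erbb3, 7.45 ± 1.09 for Erbb2 and 3.67 ± 0.435 for Erbb4 (SD, n = 3). The 3 ranges did not overlap, and the order Erbb3, Erbb2, Erbb4 was also that of the mean levels in the other 6 groups. On the same scale the neuregulins had 1.37 ± 0.602 for Nrg4, 0.854 ± 0.252 for Nrg1, 0.624 ± 0.211 for Nrg3 and 0.205 ± 0.0604 for Nrg2 (SD, n = 3). In this order, the ranges of Nrg4 and Nrg1 overlapped, as did those of Nrg1 and Nrg3, whereas Nrg2 lay below all libraries of the other ligands. The gene values sum all listed transcripts, also those that the annotation does not class as protein-coding. Over the 11 crush libraries, none of the 100.9 counts of Nrg4 and 32.4% of the 143 counts of Nrg3 were assigned to protein-coding transcripts, against 87.3% or more for each of the other 5 genes. The levels of Nrg4 and Nrg3 in the crush experiment are thus mainly those of transcripts without a protein-coding annotation. Levels between the crush libraries and the mutant libraries were not compared, as listed transcripts differed and the kits may have differed.

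Within these genes, "rose" and "fell" refer below to an adjusted p of at most 0.05 in edgeR's quasi-likelihood test, corrected by the Benjamini-Hochberg method over all genes tested, and "called" to those that in addition changed at least 2-fold. Of the 7 genes, 6 had enough counts to be tested in crushed against uncrushed nerves, and 3 of them were called, all lower (Erbb4, Nrg1 and Nrg4), where 21.1% of all genes tested were called lower and 15.3% higher. Against contralateral nerves, 4 genes were tested and 1 was called lower (Erbb4), where 13.6% of all genes were called lower and 14.6% higher. In Dicer iKO, 1 of 4 was called lower (Erbb4; 1.64% of all genes were called lower and 7.37% higher), and in Dgcr8 iKO, 1 of 4 was called higher (Nrg1; 13.4% of all genes were called higher and 6.99% lower). Nothing particular to the family is read from these counts.

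**Figure D1:**
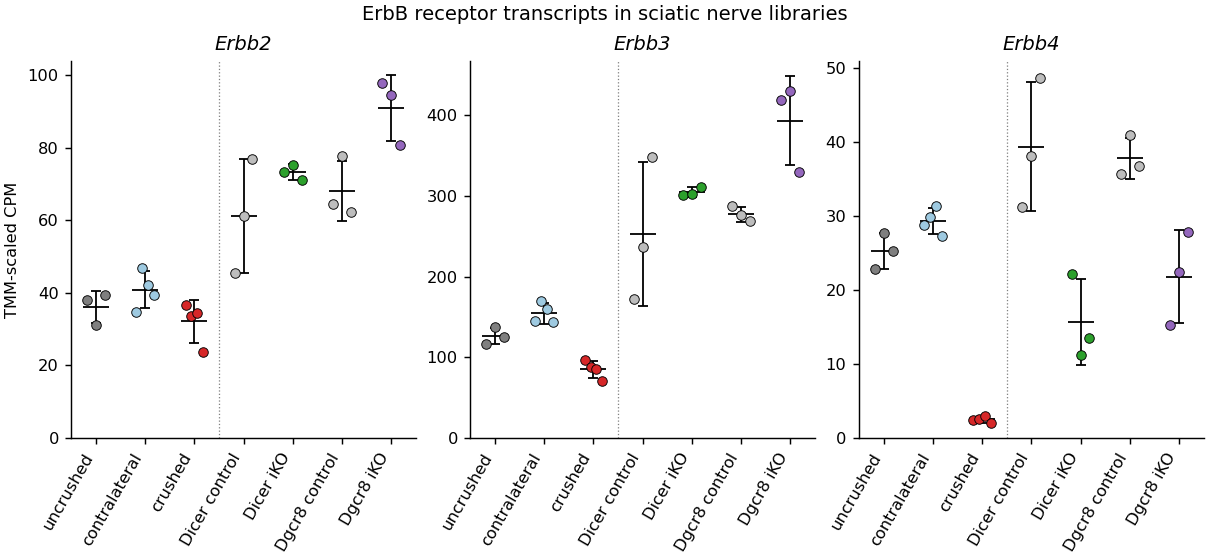
Level of Erbb2, Erbb3 and Erbb4 in TMM-scaled CPM (vertical axes, from 0) in each library (points) of the 7 groups (horizontal axis), with the mean and SD of each group (bars); the dotted line separates the crush experiment from the induced mutants. Erbb4 lies between 1.98 and 3.02 CPM in the 4 crushed nerves and above 22 CPM in every contralateral and uncrushed nerve.

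Erbb4 (Erbb4-202 at chr1:68032186-69108059), the receptor that binds neuregulins and has its own active kinase, was much lower in crushed nerves. Its levels in the crushed nerves were 2.41, 2.60, 3.02 and 1.98 CPM. In contralateral nerves they were 28.8, 29.9, 31.4 and 27.3 CPM, and in uncrushed nerves 22.8, 27.8 and 25.3 CPM. Every crushed library was below every other library, and contralateral and uncrushed nerves overlapped. Its fitted log2 fold change was -3.22 (SE 0.149, adjusted p = 3.49e-09) against uncrushed nerves and -3.53 (SE 0.125, adjusted p = 9.87e-12) against contralateral nerves, corresponding to a 9.35-fold and an 11.6-fold lower level. These comparisons share the crushed samples.

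Erbb4 was also lower in both induced mutants. Levels were 22.2, 11.2 and 13.6 CPM in Dicer iKO against 31.3, 38.2 and 48.6 CPM in Dicer controls, and the groups did not overlap. Erbb4 fell there by 1.32 on the log2 scale (SE 0.270, adjusted p = 0.0150), where 8.88% of all genes fell. This call was lost when Dicer control replicate 2, Dicer iKO replicate 2 or Dicer iKO replicate 3 was left out (adjusted p = 0.0548, 0.0638 and 0.0807), and 704, 623 and 572 genes in all were then called, in place of 1175. In Dgcr8 iKO, the levels were 15.2, 22.4 and 27.9 CPM against 35.8, 41.0 and 36.8 CPM in Dgcr8 controls, again without overlap. Here it fell by 0.79 on the log2 scale (SE 0.190, adjusted p = 0.00585), where 20.6% of all genes fell, a 1.73-fold lower level that stayed under the 2-fold limit. The effects in both mutants were compared over the 12 libraries, and their difference for Erbb4 was 0.53 (Dgcr8 minus Dicer, log2; SE 0.358, adjusted p = 0.541), where 0.0148% of all genes passed this test. None of the 4 members tested passed it, and their p-values before adjustment lay between 0.0424 for Nrg1 and 0.494 for Erbb2. The number of all genes that passed, 2 of 13552, became 401 without Dicer control replicate 3 and 240 with DESeq2, and no member was among them in either.

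The assignment of Erbb4 reads to its transcripts was unstable. Erbb4-201, with the CYT-1 exon printed above, took 0.0918, 28.3, 30.7 and 0% of the Erbb4 counts in the contralateral nerves and 24.1, 28.8 and 11.9% in the uncrushed nerves. In crushed nerves, where the gene had 21 to 33 counts per library, its share was 0, 83.7, 0 and 100%. The share in the mutants and their controls lay between 14% and 58.1%, with overlap in both comparisons. A shift between the transcript forms was therefore not detectable at this depth.

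Erbb3 (Erbb3-201 at chr10:128567523-128589652), which binds neuregulin on SCs, fell in crushed nerves. Its levels were 96.0, 87.9, 85.9 and 70.0 CPM in crushed nerves, 145, 170, 159 and 143 CPM in contralateral nerves, and 117, 137 and 126 CPM in uncrushed nerves. Crushed libraries did not overlap with either control. Contralateral nerves lay above all uncrushed nerves, but the log2 fold change between them of 0.29 (SE 0.0908) did not pass edgeR's test (adjusted p = 0.163); nor did those of Erbb4 (0.21) and Erbb2 (0.17). Erbb3 had a log2 fold change of -0.85 (SE 0.0976, adjusted p = 2.65e-06) against contralateral nerves, where 32.9% of all genes fell, and -0.47 (SE 0.110, adjusted p = 0.00257) against uncrushed nerves, where 33.4% of all genes fell. Without a filter on low counts, the latter was -0.24 (adjusted p = 0.183). That setting moved the median log2 fold change of all genes from -0.03 to -0.39, and Erbb3 then lay above the median. The lower level against contralateral nerves passed under every alternative tried.

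In Dgcr8 iKO, Erbb3 rose. Dgcr8 iKO nerves had 419, 430 and 330 CPM and Dgcr8 controls 287, 276 and 268 CPM, without overlap. This was a log2 fold change of 0.50 (SE 0.147, adjusted p = 0.0169), a 1.42-fold higher level, in a comparison in which 23.9% of all genes rose. It missed the threshold when Dgcr8 iKO replicate 1 (adjusted p = 0.0794), Dgcr8 iKO replicate 2 (0.0510) or Dgcr8 control replicate 3 (0.0576) was left out, and when all 12 libraries shared 1 fit (0.0545). Dicer iKO nerves had 301, 302 and 311 CPM, inside the range of 172, 236 and 348 CPM of their controls, and the log2 fold change was 0.27 (SE 0.230, adjusted p = 0.426). The Dicer controls spread more widely than any other group for Erbb3.

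Erbb2 (Erbb2-201 at chr11:98412470-98437716), the kinase-active partner of ErbB3, changed least of the receptors in crushed nerves. Crushed nerves had 36.8, 33.7, 34.4 and 23.7 CPM, contralateral nerves 34.8, 47.0, 42.1 and 39.5 CPM and uncrushed nerves 38.0, 31.2 and 39.3 CPM, and the 3 groups overlapped. Erbb2 fell against contralateral nerves by 0.33 on the log2 scale (SE 0.126, adjusted p = 0.0312) and had a log2 fold change of -0.06 (SE 0.137, adjusted p = 0.693) against uncrushed nerves, whose sign turned in 4 alternatives. The former missed the threshold without the filter (adjusted p = 0.324) and when crushed replicate 4 (0.117), contralateral replicate 2 (0.122) or contralateral replicate 3 (0.0702) was left out. In Dgcr8 iKO, Erbb2 rose together with Erbb3: 97.8, 94.6 and 80.7 CPM stood against 64.4, 77.7 and 62.4 CPM, which did not overlap. Its log2 fold change was 0.42 (SE 0.131, adjusted p = 0.0234) and ended above the threshold when Dgcr8 control replicate 1 or 3, or Dgcr8 iKO replicate 1 or 2, was left out (adjusted p from 0.0556 to 0.0976). In Dicer iKO it was 0.26 (SE 0.178, adjusted p = 0.33).

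As the SC receptor is a pair, the ratio of its members was compared within each library, which needs no scaling between libraries. Erbb2 stood to Erbb3 at log2 ratios of TPM, the abundance scaled by transcript length, of -1.11, -0.89, -0.995 and -1.09 in crushed nerves. The contralateral ratios were -1.77, -1.55, -1.55 and -1.56, and the uncrushed ones -1.31, -1.86 and -1.27. All crushed nerves were above all others. On average there were 2.03 Erbb3 transcripts for each Erbb2 transcript in crushed nerves, 3.05 in contralateral and 2.80 in uncrushed nerves. The difference from contralateral nerves was 0.59 on the log2 scale (exact permutation, two-sided, p = 0.0286, which 4 against 4 samples cannot go below; p = 0.143 after adjustment over 5 comparisons), and that from uncrushed nerves was 0.46 (exact permutation p = 0.0571, the lowest for 4 against 3; adjusted p = 0.143). In Dicer iKO and Dgcr8 iKO the ratio differed from controls by -0.04 and -0.07 (exact permutation p = 0.6 and 0.7, where 3 against 3 cannot go below 0.1), and all 12 libraries lay between -1.91 and -1.56.

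**Figure D2:**
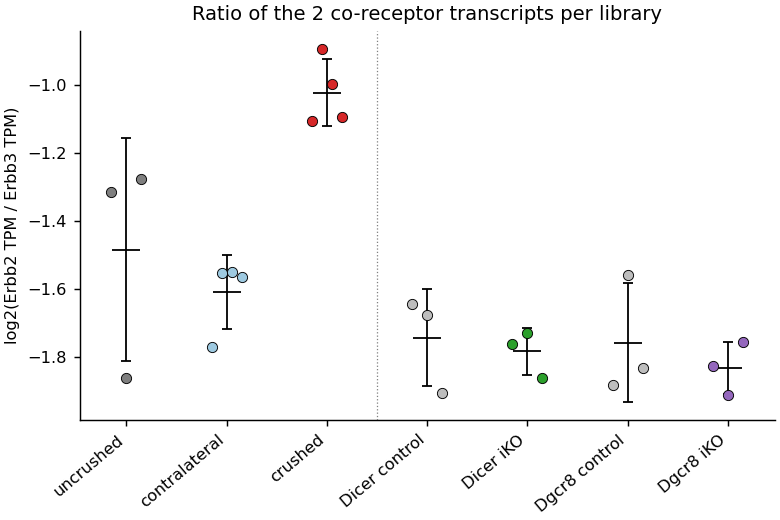
Log2 ratio of Erbb2 TPM to Erbb3 TPM (vertical axis) in each library (points) of the 7 groups (horizontal axis), with the mean and SD of each group (bars). The 4 crushed nerves lie between -1.11 and -0.89, above every other library.

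Markers of several cell types of the nerve also differed between the groups. The summed level of 7 SC markers was 1834 to 2728 CPM in crushed nerves, 32658 to 42683 CPM in contralateral and 31085 to 34185 CPM in uncrushed nerves, and 5 of the 7 were called lower against uncrushed nerves. All 6 macrophage markers were called higher there (summed 229 to 455 CPM against 51.8 to 55.1 CPM), as were the 3 proliferation markers (683 to 1028 CPM against 32.6 to 35.9 CPM). Perineurial markers summed to 106 to 121 CPM in crushed and 326 to 377 CPM in uncrushed nerves, with 1 of 3 tested called lower, and neuronal markers to 8.98 to 13 CPM against 33.3 to 34.9 CPM, with 2 of 4 called lower. The 6 markers of immature or repair SCs summed to 1352 to 1954 CPM in crushed and 181 to 188 CPM in uncrushed nerves, with 3 of 6 called higher. Endothelial markers summed to 149 to 183 CPM in crushed and 116 to 127 CPM in uncrushed nerves, with 2 of 4 called higher. Of the pericyte markers, 1 of 3 was called lower. Fibroblast markers summed to 1793 to 2275 CPM against 2791 to 3280 CPM, with 0 of 4 called. None of these markers was at 0 throughout a group. In bulk nerve, fewer cells of a type and less RNA per cell cannot be told apart, and the part of these cell types in the results for Erbb2, Erbb3, Erbb4 and the ligands was not tested.

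In the mutants, SC markers summed to 11546 to 21455 CPM in Dgcr8 iKO against 32594 to 35276 CPM, with 3 of 7 called lower, and to 17593 to 21133 CPM in Dicer iKO against 23293 to 37484 CPM, with none called. Markers of immature or repair SCs summed to 549.9 to 593 CPM in Dgcr8 iKO against 199 to 203 CPM (5 of 6 called higher) and to 351 to 410.4 CPM in Dicer iKO against 167 to 190.1 CPM (4 of 6). Macrophage markers reached 413 to 788 CPM in Dgcr8 iKO against 103 to 124 CPM (5 of 6 called higher) and 578 to 832 CPM in Dicer iKO against 101 to 300 CPM (4 of 6). Neuronal markers summed to 10.2 to 12 CPM in Dgcr8 iKO against 57.2 to 67.6 CPM (4 of 4 tested called lower). In Dicer iKO they summed to 13.3 to 34.3 CPM against 50.1 to 65.5 CPM (1 of 3 called lower). Which cells of the nerve held this RNA was not tested. Fibroblast markers summed to 8725 to 11229 CPM in Dgcr8 iKO against 4113 to 5258 CPM (2 of 4 called higher) and to 12094 to 13176 CPM in Dicer iKO against 3781 to 11334 CPM (2 of 4). Perineurial markers summed to 422 to 537 CPM in Dgcr8 iKO against 554 to 891 CPM (1 of 4 called higher) and to 489.5 to 635 CPM in Dicer iKO against 723 to 1468 CPM (1 of 4 called lower). Proliferation markers summed to 185 to 270.2 CPM against 6.84 to 10.6 CPM (3 of 3 called higher; likewise in Dicer iKO, 66.6 to 96.4 CPM against 5.0 to 13.1 CPM). None of these markers was at 0 throughout a group, and their part in the results was not tested.

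**Figure D3:**
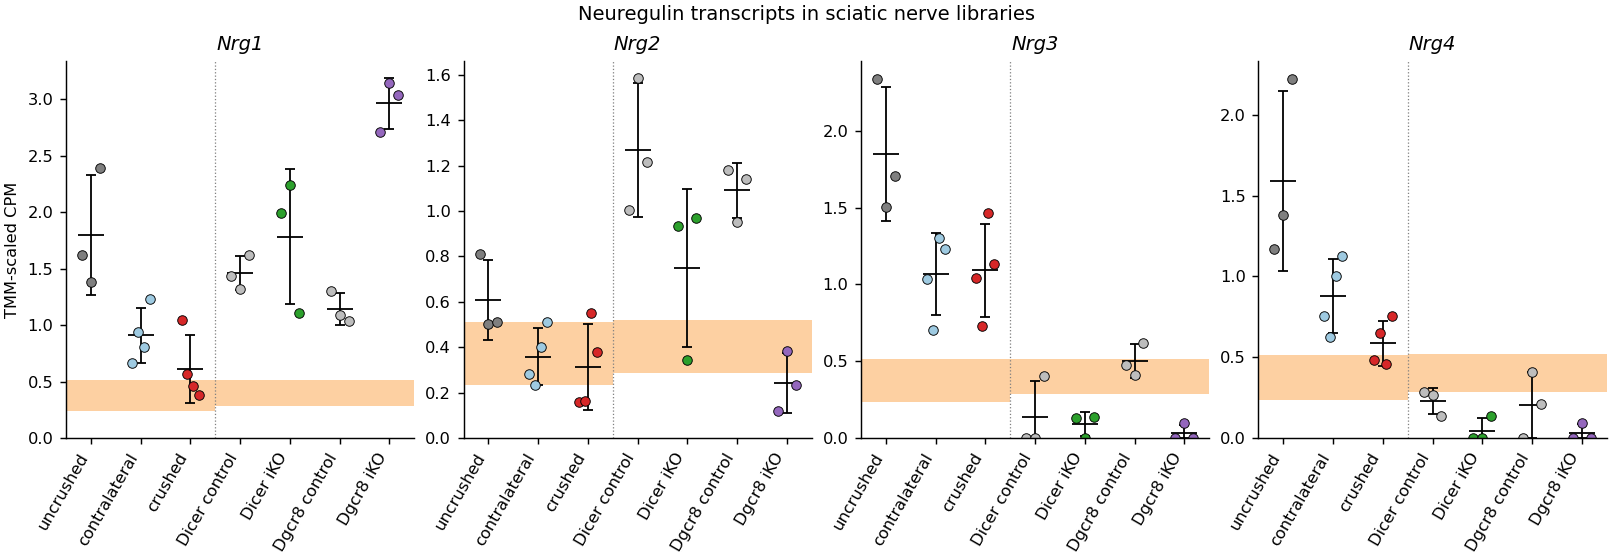
Level of Nrg1, Nrg2, Nrg3 and Nrg4 in TMM-scaled CPM (vertical axes, from 0) in each library (points) of the 7 groups (horizontal axis), with the mean and SD of each group (bars, cut at 0); the shaded bands span the level of 3 counts over the libraries of each experiment. Nrg1 lies between 2.71 and 3.15 CPM in the 3 Dgcr8 iKO nerves and between 1.04 and 1.30 CPM in their controls.

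Among the ligands, Nrg1 was low in all libraries, with 4 to 33 counts each. It was lower in crushed than in uncrushed nerves and higher in Dgcr8 iKO than in Dgcr8 controls. Uncrushed nerves had 1.62, 1.38 and 2.39 CPM (18, 11 and 14 counts). Crushed nerves had 1.04, 0.569, 0.458 and 0.377 CPM (13, 7, 5 and 4 counts), below all uncrushed nerves. Contralateral nerves had 0.660, 0.942, 0.803 and 1.23 CPM, overlapped with the crushed ones and also lay below all uncrushed nerves. In crushed against uncrushed nerves the fold change was -1.37 on the log2 scale (SE 0.403, adjusted p = 0.00962). Tested as a transcript among 34110 transcripts, of which 12.8% were called lower, it was -1.47 (SE 0.472, adjusted p = 0.0463), and this transcript call was lost in 8 of 10 alternatives. Against contralateral nerves Nrg1 did not reach the count filter. The contralateral nerves themselves had a log2 fold change of -0.95 (SE 0.365, adjusted p = 0.220) against uncrushed nerves, a comparison in which edgeR called 0 of 17722 genes (3165 at an unadjusted p under 0.05; 95 called without uncrushed replicate 2) and DESeq2 called 20. Without the filter on low counts, the median log2 fold change of all genes against uncrushed nerves moved from -0.03 to -0.39 in crushed nerves. In contralateral nerves it moved from -0.02 to -0.16, and the part of this shift in the level of Nrg1 was not tested.

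In Dgcr8 iKO, Nrg1 rose. The 3 mutant nerves had 2.71, 3.15 and 3.03 CPM (23, 33 and 26 counts), and the 3 controls 1.30, 1.09 and 1.04 CPM (11, 8 and 10 counts), without overlap. A log2 fold change of 1.37 (SE 0.335, adjusted p = 0.00650), a 2.58-fold higher level, was fitted, and it stayed between 1.29 and 1.47 and past both limits when any library was left out. As a transcript, it was 1.40 (SE 0.383, adjusted p = 0.0592), short of the threshold, where 6.59% of all transcripts were called higher. In Dicer iKO the levels were 2.0, 2.24 and 1.11 CPM against 1.44, 1.32 and 1.62 CPM in controls, and the log2 fold change was 0.28 (SE 0.394, adjusted p = 0.651). The difference between the effects of both deletions on Nrg1 was 1.09 (log2, Dgcr8 minus Dicer; SE 0.486, adjusted p = 0.346), so that a different response of the mutants was not shown.

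Nrg4, a short neuregulin that binds ErbB4, was called lower in crushed against uncrushed nerves, with 0.481, 0.651, 0.458 and 0.754 CPM against 1.17, 1.38 and 2.22 CPM, without overlap. It was fitted at a log2 fold change of -1.26 (SE 0.377, adjusted p = 0.0106), at -0.99 (adjusted p = 0.0611) without uncrushed replicate 3, and at -1.04 (adjusted p = 0.0700) without a filter on low counts. In the last setting, the median log2 fold change of all genes was -0.39, in place of -0.03. Of the 100.9 crush counts of Nrg4, 57.5 were assigned to transcripts annotated as processed transcripts, 26.0 to nonsense-mediated decay forms and 17.4 to forms with a retained intron. Of its exons, 545 of 6075 bases (8.97%) overlap exons of Fbxo22 and Gm15625 on the opposite strand. Contralateral nerves, at 0.755, 0.628, 1.0 and 1.13 CPM, overlapped with the crushed ones, and Nrg4 was not tested between them. Contralateral nerves also lay below all uncrushed nerves for Nrg4. The log2 fold change between these 2 groups was -0.82 (SE 0.387, edgeR adjusted p = 0.295). The lower level was thus not particular to the crushed side. In the mutants and their controls, Nrg4 had at most 3 counts in any library.

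Nrg3, an ErbB4 ligand known mainly from brain, had 1.04, 0.732, 1.47 and 1.13 CPM in crushed, 1.04, 0.706, 1.30 and 1.23 CPM in contralateral and 2.34, 1.5 and 1.71 CPM in the uncrushed group. For crushed nerves the fit gave -0.69 on the log2 scale (SE 0.337, adjusted p = 0.0883) against uncrushed and 0.06 (SE 0.316, adjusted p = 0.880) against contralateral nerves. Crushed and contralateral nerves both lay below all uncrushed nerves. Contralateral against uncrushed nerves had a log2 fold change of -0.83 (SE 0.351, edgeR adjusted p = 0.251). Nrg2, which binds ErbB3 and ErbB4, had 2 to 9 counts in each crush library and was not tested there. Both genes were under the filter in the mutants. Nrg2 nevertheless had 1, 4 and 2 counts in Dgcr8 iKO against 10, 7 and 11 in Dgcr8 controls, and 7, 2 and 7 counts in Dicer iKO against 7, 12 and 9. Nrg3 had 1 count in the 3 Dgcr8 iKO libraries together and 13 in the 3 Dgcr8 controls.

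**Figure D4:**
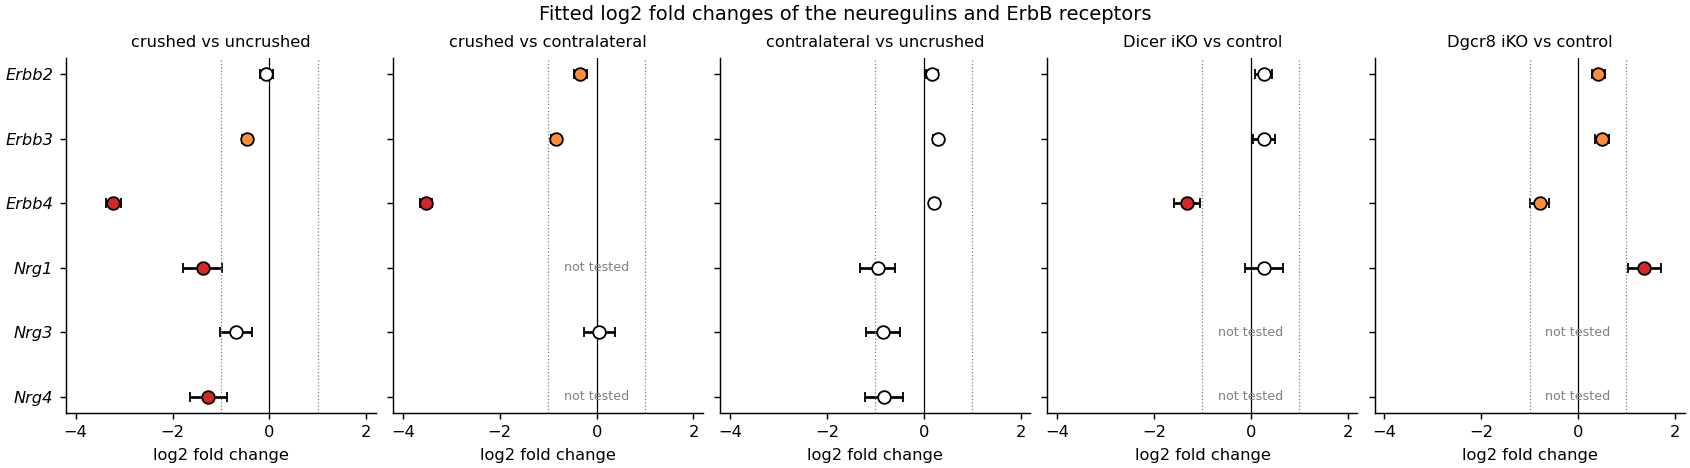
Fitted log2 fold change (horizontal axes) with its SE (bars) of the 6 members that could be tested in at least 1 comparison (rows), in 5 comparisons (panels); red points were called, orange points passed the adjusted p but not the 2-fold limit, and white points passed neither; dotted lines mark 2-fold. Erbb4 lies at -3.22 and -3.53 after crush, at -1.32 in Dicer iKO and at -0.79 in Dgcr8 iKO, and Nrg1 at -1.37 in crushed against uncrushed nerves and at 1.37 in Dgcr8 iKO.

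Of 72 genes in 5 lists around neuregulin signalling, 68 were tested in crushed against uncrushed nerves, of which 5 were called higher and 10 lower (7.35% and 14.7%, beside 15.3% and 21.1% of all genes tested). Against contralateral nerves these were 3 and 12 of 68 (4.41% and 17.6%, beside 14.6% and 13.6%). In Dicer iKO, 3 of 68 were called higher and none lower (4.41% and 0%, beside 7.37% and 1.64%). In Dgcr8 iKO, 7 of 68 were called higher and 5 lower (10.3% and 7.35%, beside 13.4% and 6.99%); 8 were lower without Dgcr8 iKO replicate 2. None was called between contralateral and uncrushed nerves, where no gene was called at all. None of the 68 listed genes passed the test of the difference between both mutants. Nothing particular to a list is read from its counts, which stand beside the same shares of all genes.

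The other EGF family genes held the largest change. Betacellulin (Btc), a ligand of ErbB1 and ErbB4, had 2 to 6 counts per library in uncrushed nerves (0.434 ± 0.160 CPM, SD, n = 3), 0.399 ± 0.102 CPM in contralateral (n = 4) and 101 ± 9.93 CPM in crushed nerves (n = 4). For Btc the log2 fold change was 7.90 (SE 0.204, adjusted p = 8.36e-11) against uncrushed and 7.97 (SE 0.160, adjusted p = 2.02e-13) against contralateral nerves. Btc was also called higher in both mutants, at 19.9 ± 8.38 CPM in Dicer iKO against 1.13 ± 1.14 CPM (n = 3 each; log2 fold change 4.15, SE 0.577, adjusted p = 0.00444) and at 29.1 ± 14.7 CPM in Dgcr8 iKO against 0.407 ± 0.302 CPM (n = 3 each; 6.15, SE 0.524, adjusted p = 9.04e-06). Tgfa, a ligand of ErbB1, was called lower after crush (log2 fold change -1.62 against uncrushed and -1.98 against contralateral nerves, adjusted p = 9.90e-08 and 1.48e-09) and in Dgcr8 iKO (-1.61, adjusted p = 3.14e-05). Hbegf, a ligand of ErbB1 and ErbB4, was called higher in Dgcr8 iKO (217 ± 65.0 CPM against 84.8 ± 2.62 CPM, n = 3 each; 1.35, adjusted p = 0.000211). The median log2 fold change of the 5 tested genes of this list was 0.14 against uncrushed nerves and 0.91 in Dgcr8 iKO, beside -0.03 and -0.01 for all genes.

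Of the 9 proteases that cut Nrg1 or take part in its processing, 1 was called lower after crush and 2 were called higher in each mutant. Adam10, a sheddase, was lower after crush (log2 fold change -1.51 against uncrushed and -1.67 against contralateral nerves, adjusted p = 1.77e-07 and 2.27e-09). Adam17, which sheds Nrg1 and restrains its signal in myelination, was called higher in Dicer iKO (158 ± 14.8 CPM against 63.3 ± 3.31 CPM, n = 3 each; log2 fold change 1.32, adjusted p = 0.00134) and in Dgcr8 iKO (220 ± 21.8 CPM against 78.9 ± 6.73 CPM, n = 3 each; 1.48, adjusted p = 1.31e-05). Adam19 was called higher with it (1.03, adjusted p = 0.0254, and 1.11, adjusted p = 0.000345). The other 7 proteases, among them Bace1 and the subunits of gamma-secretase, were not called in either mutant. The list's median was 0.47 in crushed against uncrushed nerves, 0.44 in Dicer iKO and 0.66 in Dgcr8 iKO, beside -0.03, -0.01 and -0.01 for all genes.

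Of the 34 adaptors and effectors of ErbB2 and ErbB3, 33 were tested. The docking protein gene Gab2 was called higher after crush (137 ± 10.3 CPM in crushed, n = 4, and 25.9 ± 1.59 CPM in uncrushed nerves, n = 3; log2 fold change 2.51, adjusted p = 1.12e-09) and in Dgcr8 iKO (1.22, adjusted p = 0.000102). Mapk3, which encodes the kinase ERK1, was called lower in the same comparisons (-1.49 against uncrushed and -1.73 against contralateral nerves, adjusted p = 8.23e-08 and 6.40e-10, and -1.11 in Dgcr8 iKO, adjusted p = 0.000153). Pik3r1, a regulatory subunit of phosphoinositide 3-kinase, was called lower after crush (-2.35 against uncrushed nerves, adjusted p = 4.58e-09), Pik3cb, a catalytic subunit, was called higher against uncrushed nerves (1.03, adjusted p = 0.000119) and Src was called higher in Dgcr8 iKO (1.55, adjusted p = 2.06e-05). None was called in Dicer iKO. The median of the list was 0.33, 0.15, -0.04 and 0.04 in crushed against uncrushed, crushed against contralateral, Dicer iKO and Dgcr8 iKO comparisons.

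Of 11 inhibitors and turnover genes of ErbB receptors, Dlg1, which encodes a scaffold protein, was called higher in crushed against uncrushed nerves (190 ± 8.63 CPM, n = 4, against 92.0 ± 6.27 CPM, n = 3; log2 fold change 1.16, adjusted p = 3.83e-07), and none was called in the remaining comparisons. Of 10 SC genes known to lie downstream of neuregulin, 5 were called lower and 1 higher in crushed against uncrushed nerves. The myelin gene Pmp22 was among the former (log2 fold change -5.74, adjusted p = 2.37e-10), whereas Pou3f1, a transcription factor of SCs that have not yet made myelin, was called higher (2.04, adjusted p = 2.70e-07). Against contralateral nerves, 6 were called lower and 1 higher. In Dgcr8 iKO, 3 were called lower, among them the myelin gene Mbp (-1.24, adjusted p = 0.00334), and Pou3f1 was again called higher (1.55, adjusted p = 1.21e-05). None was called in Dicer iKO, where the median was -0.42.

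**Figure D5:**
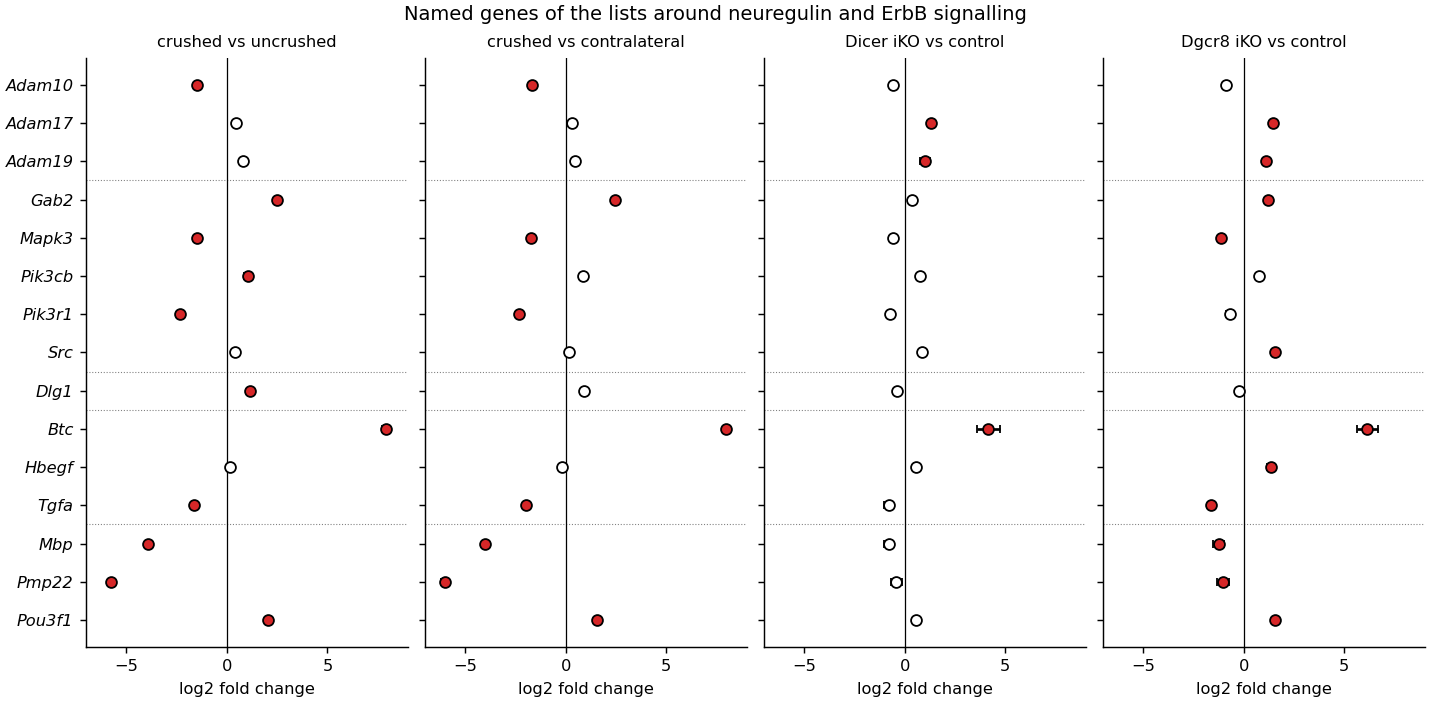
Fitted log2 fold change (horizontal axes) with its SE (bars) of the listed genes named in the text (rows; dotted lines separate the lists) in 4 comparisons (panels); red points were called and white points were not. Btc lies at 7.90 and 7.97 after crush, at 4.15 in Dicer iKO and at 6.15 in Dgcr8 iKO.

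The genes whose pattern was most like that of a member were sought over the 23 libraries, by the root mean square difference of log2(CPM + 1), centred within each experiment, among 12849 genes. For Erbb3 these were Arhgef40 (0.145), Stk10 (0.149) and Rhbdf2 (0.154), where Erbb3 itself varied by 0.365 about its mean. For Erbb2, with a variation of 0.261, they were Tmem63b (0.127), Irgq (0.134) and Rgs12 (0.158). For Nrg1 the nearest genes were Ubtd2 (0.254), Ddit3 (0.256), Ccdc141 (0.260), Zfp937 (0.262) and 1 gene without a symbol. All differed from it by more than 0.24, beside a variation of 0.367 for Nrg1. Nrg1 had 4 to 33 counts per library, and counting error was not separated from this difference. Genes whose log2(CPM + 1) averaged under 1 in either experiment were not compared. Whether any gene followed Nrg1 closely was therefore not tested. The points share libraries and depth, and the values are descriptions.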

How the data were processed

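RNA-seq values deposited by the authors were per-transcript expected counts from RSEM, with TPM and FPKM beside them (GRCm38 per the labels); TPM of the authors was used only for the ratio of Erbb2 to Erbb3, and FPKM of the authors was not used. For the crush libraries, the labels name a SMARTer kit, whereas the methods describe a kit with ribosomal depletion for both experiments. Whether the kits differed is thus not settled. Expected counts were summed per gene, rounded and tested with edgeR 4.0.16 (R 4.3.3; quasi-likelihood, TMM, filterByExpr with a minimum count of 10, Benjamini-Hochberg over all genes); a call needs a 2-fold change and an adjusted p not above 0.05, limits taken from the study. CPM used TMM factors over all libraries of an experiment. In tests on simulated data, 200 of 200 changed genes were found for 3 against 3 mutant libraries, with 1 false call among 13251 genes. The changes were planted in well-counted genes at a fixed spread. They were larger than those of Nrg1, Erbb2, Erbb3 and Erbb4 in the mutants. Recovery of smaller changes or of genes with low counts was therefore not tested. No comparison had a correlation over 0.1 in every same-numbered pair. For crushed against contralateral nerves, 2 of 4 pairs were over it (highest 0.223). This does not settle whether the numbers mark shared animals. Alternatives were DESeq2 1.42.0, RLE scaling, other filters, a replicate block, 1 fit over all groups and leaving out each library. Members, lists and tests were chosen with earlier results of these data known. All members were named; of each list and comparison, at most the 2 highest and 2 lowest called genes; and the 5 (Nrg1) or 3 (Erbb2, Erbb3) genes of most similar pattern whose log2(CPM + 1) averaged 1 or more. Some genes that this rule names are not reported here.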

Additional observations from a re-analysis of the deposited data

Results flagged for a closer look

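In groups of 4, a library far from the other 3 was sought by Dixon's test at the 95% level, which by chance flags about 5% of groups, and 3 of 50 groups were flagged. For the log2 ratio of Erbb2 to Erbb3, contralateral replicate 1 was the lowest of its group (gap of 0.939 of the range), at -1.77 against -1.56 to -1.55, and without it the difference between crushed and contralateral nerves was 0.53. Crushed replicate 1 was the highest of its group for Btc (0.862 of the range) and for Tgfa (0.862 of the range).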

How the results depend on the processing

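Calls of members under the alternatives were as follows. With at least 10 counts in every library, 1 member in place of 3 was called in crushed against uncrushed nerves. In Dgcr8 iKO 0 in place of 1 were called. Low ligands were no longer tested in either comparison. In all, 4304 of 13849 and 1978 of 12127 genes were then called. Without a filter, 3 members were called in Dgcr8 iKO (Nrg1 higher, Nrg2 and Nrg3 lower, the latter with adjusted p = 0.0315 and 0.0386), where 3060 of 18321 genes were called. Nrg2 and Nrg3 had 7 and 1 counts there in total, against 28 and 13 in controls. In Dicer iKO, leaving out 1 library gave 0 to 1 called members. Whether replicate numbers pair the samples was not settled. With a replicate block, 0 members were called in Dicer iKO (Erbb4 -1.35, adjusted p = 0.0617). With that block, the log2 fold change of the Nrg1 transcript in crushed against uncrushed nerves was -1.36 (adjusted p = 0.183). That of Erbb2 was 0.047, and no other call of a member changed. Without a filter, Nrg4 in crushed against uncrushed nerves was at -1.04 (adjusted p = 0.0700), the Nrg1 transcript was at -1.24 (adjusted p = 0.213) and Erbb2 at 0.17; with 1 library left out, they ranged from -1.86 to -1.23 and from -0.17 to 0.033. Leaving out 1 library gave ranges that crossed 0 for Nrg3 in crushed against contralateral nerves (-0.14 to 0.18), for the difference between mutants of Erbb2 (-0.037 to 0.33) and Erbb3 (-0.074 to 0.44), and for the ratio of Erbb2 to Erbb3 in Dicer iKO (-0.12 to 0.0075) and Dgcr8 iKO (-0.14 to 0.026). For crushed against contralateral nerves that ratio ranged from 0.53 to 0.62, with the smallest exact permutation p allowed, 0.0571. Called genes of the lists, alternatives chosen after seeing the data, numbered without a filter 10 higher (crushed against uncrushed) and 6 higher (against contralateral nerves), 3 higher with 10 counts in every library (crushed against uncrushed), and with 1 library left out ranged from 0 to 1 lower in Dicer iKO and from 4 to 8 lower in Dgcr8 iKO. In the same order, 3757 of 36681, 3289 of 36853 and 1747 of 13849 of all genes were called higher. With 1 library left out, 57 to 375 of all genes were called lower in Dicer iKO and 850 to 1100 in Dgcr8 iKO. Over all genes, with a replicate block 640 were called in place of 1175 in Dicer iKO and 6 in place of 0 between contralateral and uncrushed nerves, where no filter gave 141; the genes passing the difference between mutants numbered 0 to 401 with 1 library left out, against 2. Over transcripts, 4957 were called with the block in place of 8535 in crushed against uncrushed nerves, and 864 in place of 2779 in Dgcr8 iKO. Where no construction is named, the cause was not tested. The comparison of Nrg1 start groups was not run, because 1 Nrg1 transcript was listed.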
